A study of Homo sapiens with 6 samples.

Results

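The OAS family in human cells comprises OAS1, OAS2, OAS3 and OASL. The rows with these 4 gene symbols were taken from the 29845 genes of the deposited reads table and from the 29656 genes of the deposited FPKM table, and each symbol occurred once. RNA was measured in A549 cells, an established human lung epithelial cancer line. The cells were transfected with the empty pIRES-hrGFP-1a vector (control) or with the same vector carrying FLAG-tagged TFAM, a mitochondrial DNA packaging and transcription factor, and were collected 48 h later. Each group had 3 libraries of polyadenylated RNA from biological replicates. Both groups therefore went through lipid transfection with plasmid DNA, no untransfected cells were analysed here, and the labels name no virus or interferon. The share of cells that took up a plasmid is not given in the sources used here. The comparison asks how the mRNA of these genes differed between cells given the TFAM plasmid and cells given the empty plasmid.

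OAS proteins bind double-stranded RNA in the cytoplasm. OAS1, OAS2 and OAS3 then join ATP into oligoadenylates with 2′-5′ links, called 2-5A. The 2-5A is a messenger that leads to the breakdown of viral and cellular RNA and so limits the growth of viruses. OASL belongs to the same family but makes no 2-5A, and its ubiquitin-like domains assist the RNA sensor RIG-I. The genes are classical interferon-stimulated genes, whose promoters are bound by complexes of STAT2 and IRF9 after interferon acts on a cell. Airway epithelial cells and lines derived from them use this system against RNA viruses.

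Of the 4 genes, OAS1 and OAS3 had an entry in the RefSeq promoter table (GRCh38.p14) used here, while OAS2 and OASL had none. The promoters are shown because interferon acts on the OAS genes through short elements in them, and the 250 bases before each start are printed with the motif matches in capitals. The OAS1 sequence is chr12:112906712-112906961 and the OAS3 sequence is chr12:112938224-112938473, both on the plus strand. The starts meant here are those of the RefSeq table. The gene spans given below are from GENCODE and begin earlier, at 112905856 for OAS1 and 112938051 for OAS3, so both stretches lie within them.
OAS1: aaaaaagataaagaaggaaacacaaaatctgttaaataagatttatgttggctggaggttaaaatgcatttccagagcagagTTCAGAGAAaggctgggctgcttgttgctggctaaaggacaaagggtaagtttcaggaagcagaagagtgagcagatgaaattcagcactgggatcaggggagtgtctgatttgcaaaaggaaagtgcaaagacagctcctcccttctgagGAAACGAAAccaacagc
OAS3: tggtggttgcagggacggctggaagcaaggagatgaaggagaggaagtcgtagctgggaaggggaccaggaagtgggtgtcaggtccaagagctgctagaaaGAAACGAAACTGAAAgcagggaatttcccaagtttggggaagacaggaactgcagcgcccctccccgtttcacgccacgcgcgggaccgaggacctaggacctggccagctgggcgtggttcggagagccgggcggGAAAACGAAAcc

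The motif searched for was the core of the interferon-stimulated response element, GAAANNGAAA, on both strands. OAS3 held it in GAAACTGAAA, 143 bases before the start, and in GAAAACGAAA, 12 bases before the start. OAS1 did not hold these letters. A form with the GAAA copies 1 base closer, GAAANGAAA, was added after the OAS1 promoter was seen. It occurred in OAS1 as GAAACGAAA, 17 bases before the start, and in OAS3 with the same letters 148 bases before the start, where it overlapped the first core. The core of the gamma-activated site, TTCNNNGAA occurred in OAS1 as TTCAGAGAA, 168 bases before the start, and was not found in OAS3. Of 34943 promoter windows in the table, which also take in 50 bases after the start, 3.57% held the response element core, 3.12% held the closer form and 7.66% held the gamma-activated core. These matches describe the letters and are no evidence of binding in these cells.

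Before the OAS genes, the targeted gene was examined. TFAM (chr10:58385345-58399220) was read at 76.0, 70.1 and 72.6 CPM (counts scaled to a common library size) in control libraries 1, 2 and 3, and at 71.8, 77.2 and 83.0 CPM in the TFAM-OE-labelled libraries, so the groups overlapped. Its log2 fold change was 0.08 (SE 0.10, adjusted p = 0.623, edgeR quasi-likelihood test), which does not show the higher TFAM mRNA that the label names. The paper reports TFAM overexpression as protein, by western blot against the FLAG tag, which RNA reads do not measure. Directions below are given for the libraries as labelled. The libraries held between 26650854 and 37321956 reads counted to genes in the deposited reads table. Of the 16555 genes tested, 342 (2.07%) were called lower in the TFAM-OE-labelled libraries, which requires a fold change of 0.5 or less at an adjusted p under 0.05, and 74 (0.447%) were called higher, which requires a fold change of 2 or more. These totals changed to 183 and 21 without control 1, to 184 and 28 without control 2 and to 205 and 41 without TFAM-OE 2, and the number higher became 113 without TFAM-OE 3. By adjusted p alone, 796 genes (4.81%) were lower and 576 (3.48%) higher, and 2623 genes (15.8%) were lower in every TFAM-OE-labelled library than in every control. The median log2 fold change of all genes tested was -0.008.

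All 4 OAS genes fell in the TFAM-OE-labelled libraries and all 4 were called, where 2.07% of all genes tested were called lower. The estimated falls of OAS2 and OASL were the larger ones, and those of OAS1 and OAS3 the smaller ones. In each of the 4 genes every TFAM-OE-labelled library lay below every control, as did 15.8% of all genes tested. CPM are read counts scaled for library size by TMM, and FPKM are the deposited values per kilobase of transcript. In bulk RNA, fewer cells expressing a gene and less of its RNA per cell cannot be told apart.

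OAS2 (ENSG00000111335.12, chr12:112978395-113011723, plus strand) is a 2-5A synthetase found at membranes. It was read at 94.4, 135 and 117 CPM in control libraries 1, 2 and 3 and at 12.8, 10.8 and 8.09 CPM in TFAM-OE-labelled libraries 1, 2 and 3. The lowest control stood 7.38 times above the highest TFAM-OE-labelled library. The log2 fold change was -3.45 (SE 0.19, adjusted p = 1.8e-05, edgeR quasi-likelihood test), so the control level was 10.9 times higher with a 95% interval of 8.15 to 14.6. On the log2(FPKM + 1) scale, which understates the change of low values, the difference was -2.79. Among the 16555 genes tested, OAS2 had the fall of rank 15 and the p-value of rank 5.

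OASL (ENSG00000135114.12, chr12:121017763-121039246, minus strand), the member without 2-5A synthesis, was read at 225, 239 and 228 CPM in the controls. The TFAM-OE-labelled libraries gave 36.3, 26.2 and 17.4 CPM. OASL was therefore the steadiest member among the controls, with a coefficient of variation of 3.11%, and the most variable one among the TFAM-OE-labelled libraries, with 35.4%. Its log2 fold change was -3.12 (SE 0.22, adjusted p = 4.4e-05), and the control level was 8.67 times higher (95% interval 6.16 to 12.2). This was the fall of rank 19 among all genes tested.

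OAS1 (ENSG00000089127.12, chr12:112905856-112933219, plus strand) is the smallest of the 2-5A synthetases. It was read at 296.5, 349 and 366 CPM in the controls and at 113, 80.1 and 61.6 CPM in the TFAM-OE-labelled libraries. The highest TFAM-OE-labelled library and the lowest control were separated 2.62-fold, while the TFAM-OE-labelled libraries spanned a 1.84-fold range among themselves. The log2 fold change was -1.99 (SE 0.20, adjusted p = 3.6e-04), and the control level was 3.97 times higher (95% interval 2.93 to 5.37). The values are per gene, so the splice forms of OAS1, which differ at their ends, were not told apart.

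OAS3 (ENSG00000111331.12, chr12:112938051-112976460, plus strand) is the largest member and is known as the main source of 2-5A in infected human cells. It was read at 565, 697 and 701 CPM in the controls and at 277, 240.1 and 238 CPM in the TFAM-OE-labelled libraries. The lowest control lay 2.04 times above the highest TFAM-OE-labelled library. OAS3 had the smallest fall of the family, with a log2 fold change of -1.38 (SE 0.12, adjusted p = 1.4e-04) and a control level 2.60 times higher (95% interval 2.17 to 3.12). It was also the steadiest member among the TFAM-OE-labelled libraries, with a coefficient of variation of 8.65%.

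The members shared an order among the libraries. All 4 had their highest CPM of the labelled group in TFAM-OE 1 and their lowest in TFAM-OE 3, which was also the case for 34.6% of all genes tested, and all 4 had their lowest control CPM in control 1, as did 36.8%. On FPKM, OAS3 was lowest in TFAM-OE 2. The members remained called when any 1 library was left out, with log2 fold changes between -2.25 and -1.80 for OAS1, between -3.60 and -3.29 for OAS2, between -1.47 and -1.33 for OAS3 and between -3.40 and -2.88 for OASL.

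**Figure D1:**
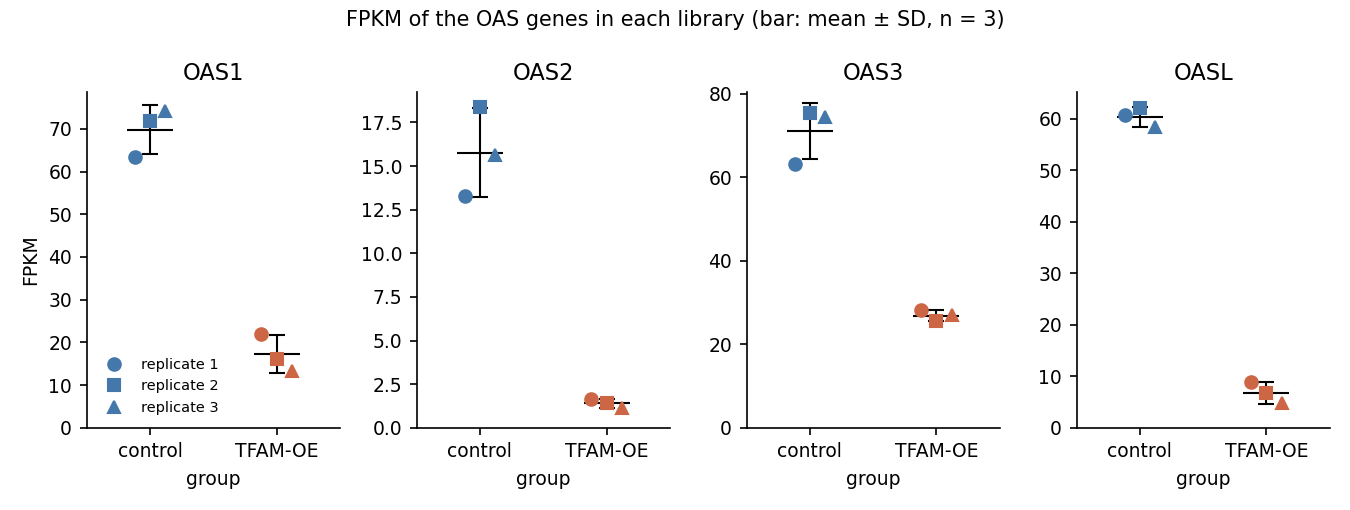
The deposited FPKM of OAS1, OAS2, OAS3 and OASL (vertical axes, each from 0 and with its own scale) in the 3 control libraries and the 3 TFAM-OE-labelled libraries, with horizontal lines for means and bars for the SD. In each gene the controls lie above the labelled libraries without overlap, and OAS2, with 13.31 FPKM in the lowest control and 1.64 FPKM in the highest labelled library, has the widest gap as a ratio (8.12-fold).

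Levels of different genes were compared on FPKM, which divides by a gene length that is not given in the sources used here. Reads and FPKM together implied 4854 bases for OAS1, 7360 for OAS2, 9265 for OAS3 and 3854 for OASL. The annotated exons of all transcripts joined covered 13021, 11233, 18045 and 6319 bases. Comparisons between genes, and their shares in a sum, therefore depend on the lengths that were used. In the controls OAS3 (71.0 ± 6.76 FPKM, SD, n = 3) and OAS1 (69.8 ± 5.67 FPKM) overlapped and did not differ beyond their spread. OASL (60.4 ± 1.91 FPKM) lay below both in every library, and OAS2 stood far lower at 15.8 ± 2.54 FPKM. In the TFAM-OE-labelled libraries the order was OAS3 with 26.9 ± 1.39 FPKM, OAS1 with 17.2 ± 4.45 FPKM, OASL with 6.77 ± 2.09 FPKM and OAS2 with 1.41 ± 0.246 FPKM, and no neighbours in this order overlapped. By mean FPKM, OAS3 stood above 97.1% of the genes with a value over 0 in the controls and above 91.9% in the TFAM-OE-labelled libraries. The same standing went from 97.1% to 87.9% for OAS1, from 96.5% to 77.7% for OASL and from 87.7% to 58.95% for OAS2.

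The summed FPKM of the family was between 200.7 and 228 in the controls and between 46.1 and 60.8 in the TFAM-OE-labelled libraries, 4.15 times lower on average. The family took 0.135% ± 0.0108 of the library's reads counted to genes in the controls and 0.0369% ± 0.00416 in the TFAM-OE-labelled libraries (SD, n = 3). The make-up of the sum also differed. OAS3 held 32.7% ± 1.03 of the family's FPKM in the controls and 52.0% ± 6.03 in the TFAM-OE-labelled libraries, while the share of OAS1 was alike at 32.2% ± 0.995 and 32.6% ± 3.70. OASL went from 27.9% ± 2.10 to 12.8% ± 2.25 and OAS2 from 7.24% ± 0.745 to 2.69% ± 0.200. Except for OAS1, these shares did not overlap between the groups.

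**Figure D2:**
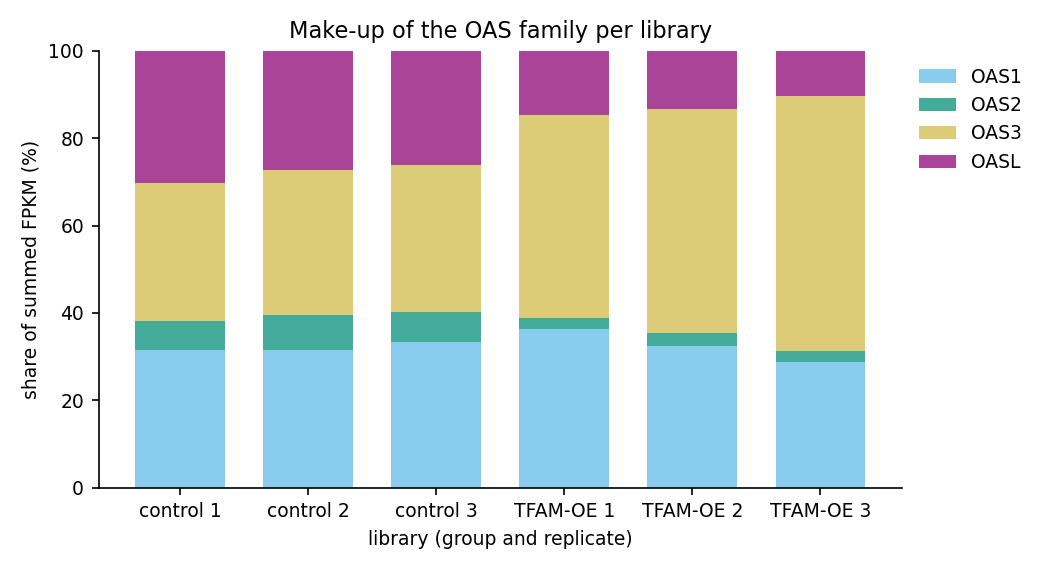
Share of each OAS gene in the summed FPKM of the family (vertical axis, percent) in each of the 6 libraries. The OAS3 segment grows from between 31.5% and 33.5% in the controls to between 46.4% and 58.4% in the TFAM-OE-labelled libraries, and the OAS2 and OASL segments shrink.

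Ratios of reads between members within a library do not depend on scaling. No pair passed a threshold of 0.05, which 3 against 3 libraries cannot reach. In 5 of the 6 pairs the groups did not overlap, a description only, since no share over other pairs of genes was computed. The log2 ratio of OAS2 to OAS3 went from -2.51 ± 0.12 in the controls to -4.60 ± 0.24 (SD, n = 3), a change of -2.08 (exact permutation test, two-sided, p = 0.1, adjusted p = 0.12 over 6 pairs). The mean log2 ratio of OAS3 to OASL was higher under the TFAM-OE label by 1.80, that of OAS1 to OAS2 by 1.43 and that of OAS1 to OASL by 1.15, while for OAS1 to OAS3 the difference was -0.65. Each of these had an exact permutation p of 0.1 and an adjusted p of 0.12, and 0.1 is the smallest value that 3 against 3 libraries allow. OAS2 and OASL had groups that overlapped, with a change of -0.28 (exact permutation p = 0.2, adjusted p = 0.2).

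**Figure D3:**
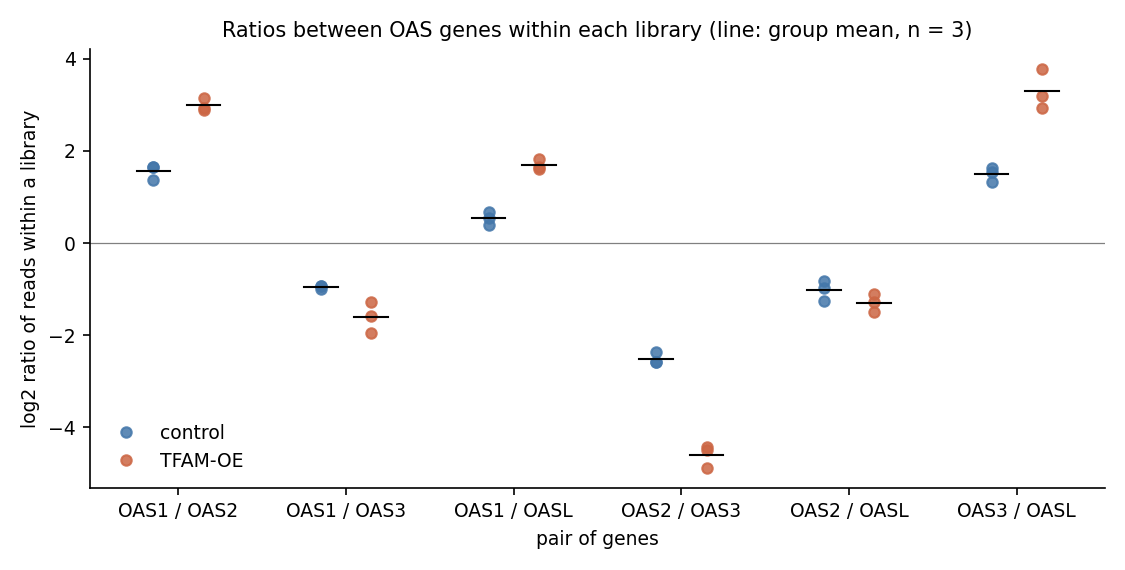
The log2 ratio of reads of 2 OAS genes within a library (vertical axis) for the 6 pairs, with 1 point per library in the control and in the group labelled TFAM-OE and lines for the group means. The groups separate in 5 pairs, and the points of OAS2 over OASL overlap.

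No gene of a list linked to 2-5A passed the test. The list held PDE12 and AKAP7, phosphodiesterases that can degrade 2-5A, and ABCE1, an ATPase that also recycles ribosomes. Of these 3, 0 passed in either direction with edgeR's quasi-likelihood test, where 4.81% of all genes tested were lower and 3.48% higher. Beside such shares, 0 of 3 does not set the list apart from other genes. Of the 3, 0 had an unadjusted p below 0.05 by that test, DESeq2, edgeR's exact test or limma-voom. Their median log2 fold change was -0.14, beside -0.008 for all genes tested. ABCE1 had a log2 fold change of -0.14 (adjusted p = 0.477), PDE12 of -0.07 (adjusted p = 0.721) and AKAP7 of -0.31 (adjusted p = 0.341). Their 95% intervals, the lowest reaching -0.74 in AKAP7, lay above that of each OAS gene, of which OAS3 came nearest with an upper bound of -1.12.

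Among other sensors of double-stranded RNA and DNA and their adaptors, 6 of 9 tested genes fell and 0 rose (background 4.81% lower and 3.48% higher), with a median log2 fold change of -1.06 beside -0.008 for all genes tested. At an unadjusted p below 0.05, 2 were higher, MAVS and PRKRA. By p-value these ranked 1627 and 3210 among the 16555 genes tested, so such values were common. IFIH1, which encodes MDA5, a sensor of long double-stranded RNA, went from between 44.8 and 47.0 CPM in the controls to between 9.89 and 10.1 CPM, with a log2 fold change of -2.20. DDX58, which encodes RIG-I, fell by 2.04 on the log2 scale, the endosomal receptor TLR3 by 1.80 and DHX58, the MDA5 cofactor LGP2, by 1.62. EIF2AK2, the kinase PKR that halts translation on double-stranded RNA, fell from 203 to 97.6 CPM, a log2 fold change of -1.06. All 5 were called. EIF2AK2 missed the 2-fold limit without control 2 (-0.99) or TFAM-OE 1 (-0.97), and on the log2(FPKM + 1) scale so did EIF2AK2 (-0.997), DHX58 (-0.61) and TLR3 (-0.54).

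ADAR, which edits double-stranded RNA, passed without reaching the 2-fold limit, at -0.56 on the log2 scale (adjusted p = 0.028). It no longer passed without control 1 (-0.61, adjusted p = 0.080), control 2 (-0.52, 0.132), control 3 (-0.53, 0.070) or TFAM-OE 2 (-0.57, 0.116), nor with replicate numbers as a block (-0.57, 0.07). The DNA sensor MB21D1, which encodes cGAS, had a log2 fold change of -0.24 (adjusted p = 0.239), the adaptor MAVS of 0.40 (adjusted p = 0.061) and PRKRA, an activator of PKR, of 0.27 (adjusted p = 0.139). MAVS passed by DESeq2 (0.41, adjusted p = 0.030), and also without TFAM-OE 1 (0.48, 0.016) or TFAM-OE 3 (0.34, 0.043). ZBP1 and TMEM173, which encodes STING, had too few reads to be tested.

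The genes that lead from interferon to the OAS promoters were described by role. Of the 17 tested genes reported here, 9 fell and 0 rose, with 8 called and a median log2 fold change of -0.61 (over all genes tested, 4.81% fell, 3.48% rose, 2.07% were called lower and the median was -0.008). At an unadjusted p below 0.05, 2 were higher (TYK2 and IRF3). Their p-values ranked 2443 and 3286 among the 16555 genes tested, so such values were common. The ligands had the largest log2 fold changes of the list. IFNB1, interferon beta, had 174, 121 and 132 reads against 12, 5 and 5 reads under the TFAM-OE label, with a log2 fold change of -4.28 (SE 0.32, adjusted p = 7.2e-05). IFNL1, interferon lambda 1, fell by 3.87 on the log2 scale, from 261, 187 and 169 reads to 13, 19 and 11. IFNL2 (-3.40) and IFNL3 (-3.47) resemble each other closely in sequence. Reads that match both could have been left out of a count of uniquely mapped reads, and each value is uncertain.

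The receptor subunits and the kinases bound to them did not pass the test. The log2 fold change was -0.23 for IFNAR1 and -0.11 for IFNAR2, the receptor of interferon beta, 0.11 for IFNLR1 and -0.28 for IL10RB, the receptor of interferon lambda, -0.002 for the kinase JAK1 and 0.37 for TYK2. Their adjusted p-values were between 0.098 and 0.994. Without TFAM-OE 3, IFNAR1 (-0.37, adjusted p = 0.041) and TYK2 (0.45, adjusted p = 0.020) passed.

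Transcription factors of the pathway were lower in part. IRF7, which drives interferon genes, went from 119, 154 and 148 CPM to 50.8, 35.7 and 24.2 CPM, with a log2 fold change of -1.93. STAT2 fell by 1.02 on the log2 scale and by 1.01 with the replicate numbers as a block, where it no longer passed (adjusted p = 0.0503). It passed but missed the 2-fold limit without control 2 (-0.98), control 3 (-0.89) or TFAM-OE 3 (-0.93), and on the log2(FPKM + 1) scale (-0.93). IRF1 passed without being called, at -0.61 (adjusted p = 0.024), and did not pass without control 1 (adjusted p = 0.0999), control 2 (0.117), control 3 (0.054) or TFAM-OE 2 (0.117), nor with the block (0.085), with log2 fold changes between -0.62 and -0.58 in those fits. IRF2 (-0.25) and IRF3 (0.29) did not pass, although IRF3 did without TFAM-OE 3 (0.37, adjusted p = 0.026).

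The feedback inhibitors USP18 and SOCS1 also fell, by 1.76 and 1.09 on the log2 scale. SOCS1 (adjusted p = 0.028) no longer passed without control 1 (-0.90, adjusted p = 0.140), control 2 (-1.21, 0.066) or TFAM-OE 2 (-1.02, 0.129), nor with the block (-1.09, 0.060), and missed the 2-fold limit without TFAM-OE 3 (-0.96) and on the log2(FPKM + 1) scale (-0.60). IRF9, the DNA-binding partner of STAT2, had between 0 and 5 reads in each library and was not tested. On the same strand it is overlapped by a readthrough gene (ENSG00000259529.1), which was looked up after the values were seen and held between 1372 and 3772 reads. That gene had a log2 fold change of -0.72 (adjusted p = 0.026), lost without control 1 (-0.74, adjusted p = 0.103), control 2 (-0.71, 0.108), control 3 (-0.68, 0.065) or TFAM-OE 2 (-0.69, 0.117) and with the block (-0.75, 0.089). How reads shared by both genes were assigned is not given in the sources used here.

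**Figure D4:**
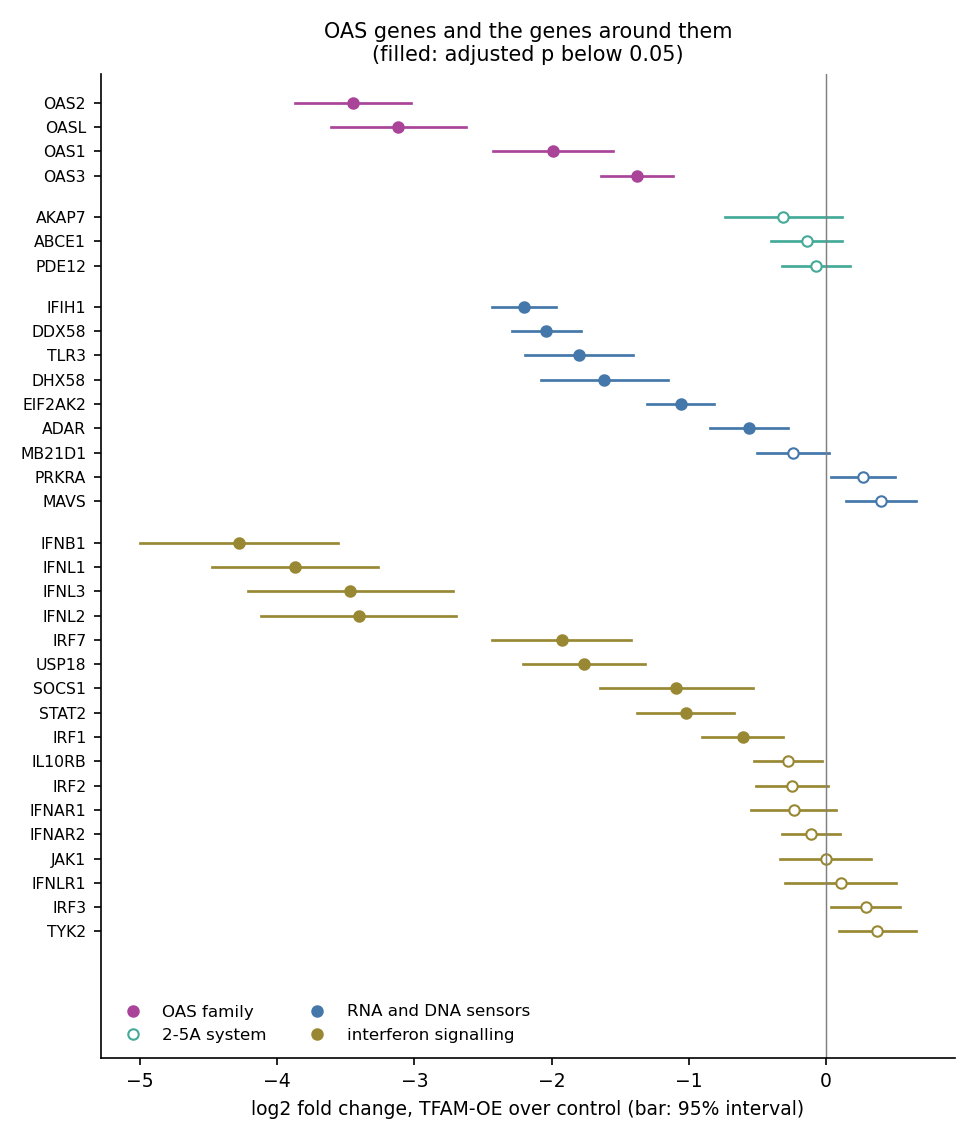
The log2 fold change of the TFAM-OE-labelled libraries over control (horizontal axis, with 95% intervals) for the OAS genes, the 2-5A list, the sensors and the interferon signalling genes. Filled points have an adjusted p below 0.05. The OAS genes lie between -3.45 and -1.38, the 3 genes of the 2-5A list between -0.31 and -0.07, and the interferon genes reach -4.28.

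The IFIT family, interferon-stimulated proteins that bind foreign RNA ends, served as a family for comparison. All 4 tested members fell and were called, where 2.07% of all genes tested were called lower. The log2 fold changes were -2.81 for IFIT2, -2.71 for IFIT3, -2.55 for IFIT1 and -1.27 for IFIT5, with a median of -2.63. Their summed FPKM lay between 160 and 175 in the controls and between 24.2 and 38.2 in the TFAM-OE-labelled libraries. The OAS genes, from -3.45 to -1.38, covered a like span of log2 fold changes, and whether the families differed was not tested.

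In the annotation OAS1, OAS3 and OAS2 lie in this order within 106 kb of chromosome 12, with 4.83 kb between OAS1 and OAS3 and 1.93 kb between OAS3 and OAS2. OASL lies alone, 8.01 Mb further along. The fall within the cluster did not follow the order, since OAS3 in the middle had the smallest change and OAS2 at its end the largest. Of the 10 nearest tested genes around the cluster, 1 fell and 0 rose, where 4.81% of all genes tested fell and 3.48% rose. Around OASL, 0 of 8 neighbours reported here passed with edgeR's quasi-likelihood test. At an unadjusted p below 0.05 by that test, 4 were higher. The p-values of these 4 ranked between 1589 and 3987 among the 16555 genes tested, so such values were common. DESeq2 and edgeR's exact test each passed 1 of the 4.

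The gene that fell near the cluster was RP1-71H24.1, a long non-coding RNA on the minus strand (chr12:112907628-113017751) that spans the opposite strand of the cluster. It had 63, 63 and 87 reads in the controls and 23, 17 and 11 under the TFAM-OE label, with a log2 fold change of -2.08 (SE 0.27, adjusted p = 0.0025). Of its 575 exonic bases, 222 (38.6%) overlapped exons of OAS1 and 0 overlapped those of OAS3 or OAS2. The library kit kept strand, but the use of strand in counting is not given. On the shared bases, reads of the antisense gene and of OAS1 therefore cannot be told apart. The reads of RP1-71H24.1 were between 0.119% and 0.2% of those of OAS1, OAS2 and OAS3 together.

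None of the other neighbours passed the edgeR test. On the side before the cluster, RPH3A, which ends 6.98 kb before OAS1, had a log2 fold change of -0.54 (adjusted p = 0.278), TRAFD1 of -0.23, PTPN11 of -0.14, HECTD4 of 0.03 and RPL6 of 0.03. Beyond OAS2 the values were 0.24 for DTX1, -0.06 for CCDC42B, -0.01 for DDX54 and 0.18 for RITA1. Beside OASL, the values were 0.03 for SPPL3, -0.18 for RP11-173P15.5 and 0.45 for ACADS, and on the other side P2RX4 had -0.22, CAMKK2 0.31, ANAPC5 0.34, RNF34 0.11 and KDM2B 0.25. ANAPC5 (adjusted p = 0.060) passed without TFAM-OE 3 (0.36, adjusted p = 0.025), as did ACADS (0.58, adjusted p = 0.035).

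**Figure D5:**
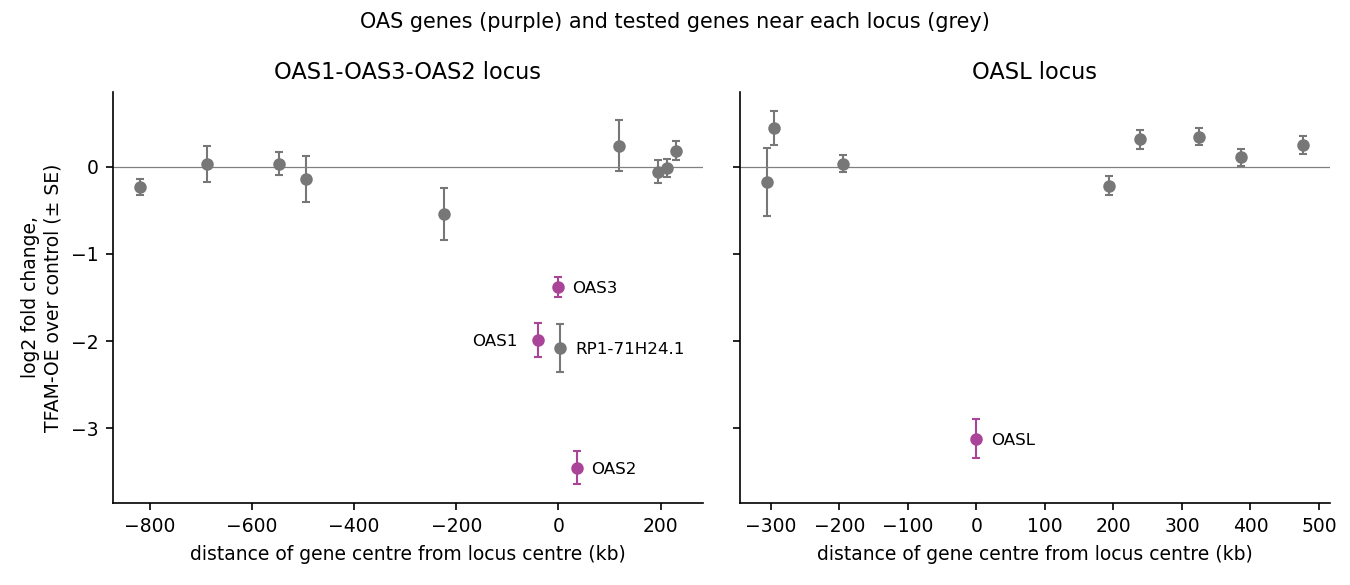
The log2 fold change (vertical axis, with SE bars) of the OAS genes and of the tested genes near each locus against the distance of the gene's centre from the centre of the locus (horizontal axis, kb). Apart from RP1-71H24.1 at -2.08, the neighbours lie between -0.54 and 0.45, above all 4 OAS genes.

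The pattern of the 4 members over the 6 libraries, taken as the mean of their centred and scaled log2(CPM + 1), was most like that of UBE2L6 (Pearson r = 0.999), HELZ2 (0.999), MX1 (0.998), CMPK2 (0.998) and IFI44 (0.998). Across 16551 genes, 305 (1.84%) reached an r of 0.95, and the members themselves had between 0.995 and 0.998. Each member is itself part of the mean, which raises its own r, so the members' values cannot be set against those of other genes. The points share the libraries and the split in groups, so these correlations describe the pattern only. UBE2L6 is the conjugating enzyme for ISG15, MX1 a GTPase that blocks viral replication and CMPK2 a nucleotide kinase. Their log2 fold changes were -1.79 for UBE2L6, -1.64 for HELZ2, -2.74 for MX1, -3.09 for CMPK2 and -2.87 for IFI44.

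The labelled cell type and possible other cells were examined with marker lists. The keratins KRT7, KRT8 and KRT18 of epithelial cells were abundant, whereas EPCAM (0.193 and 0.353 FPKM in control and labelled libraries) and CDH1 (0.753 and 0.930 FPKM) were low. Of the 5 epithelial markers, 0 passed the edgeR test, 1 (EPCAM) was higher at an unadjusted p below 0.05 and 0 passed by DESeq2, and their summed FPKM was between 2507 and 2701 in the controls and between 2371 and 2767 in the TFAM-OE-labelled libraries. The p-value of EPCAM ranked 3057 among the 16555 genes tested, so values this low were common. Of the immune markers, PTPRC had 0 reads in the controls and 1 read in 1 library labelled TFAM-OE, and CD68, which is not limited to immune cells, fell from 3.25 to 1.39 CPM (log2 fold change -1.21, adjusted p = 0.015). CD68 no longer passed without control 1 (-1.25, adjusted p = 0.062) or control 2 (-1.11, 0.083), and missed the 2-fold limit without TFAM-OE 3 (-0.99) and on the log2(FPKM + 1) scale (-0.62). The summed FPKM of the 4 listed immune markers was between 1.42 and 1.67 in the controls and between 0.49 and 0.81 in the labelled libraries, and its part in the OAS result was not tested. Fibroblast markers summed to between 0.64 and 0.69 FPKM and between 0.38 and 0.65 FPKM, with COL1A1 at -0.37 (adjusted p = 0.321), and endothelial markers to at most 0.03 FPKM. Of 5 reference genes (ACTB, GAPDH, TBP, HPRT1 and PPIA), 0 fell and 1 rose, with a median log2 fold change of 0.09. The one that rose, HPRT1 (0.36, adjusted p = 0.043), no longer passed without any of control 1, 2 or 3 or TFAM-OE 1 or 2, with adjusted p-values between 0.051 and 0.173 and log2 fold changes between 0.33 and 0.40, nor with the replicate block (0.36, adjusted p = 0.164).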

How the data were processed

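RNA was measured in 6 libraries of A549 cells, grouped by their labels. The authors trimmed adaptors and poor bases (FASTX-Toolkit), aligned reads to GRCh38 with TopHat2 and deposited, for each gene and library, a count of uniquely mapped reads and an FPKM value. Which program and gene annotation they counted with, and whether by strand, is not given in the sources used here. Two-sided quasi-likelihood tests of edgeR (4.0.16, in R 4.3.3) were run on the deposited counts after TMM scaling, on the genes kept by filterByExpr, with Benjamini-Hochberg adjustment over all of them. Called genes had adjusted p under 0.05 with a fold change of 2 or more, or of 0.5 or less. Testing all genes with a read was an alternative. The fitting steps were tested on simulated data. SE and 95% intervals come from the fit, and its p-values set the group difference against the spread between 3 replicates per group. Counts of reads without molecular identifiers limit counting error only. Correspondence of replicate numbers between groups was checked, and the numbers were not taken as pairs. The check cannot show whether the samples were handled in pairs. Ratios were tested in Python (3.11.15) with scipy (1.17.1), figures drawn with matplotlib (3.10.9), and coordinates taken from GENCODE version 44 on GRCh38. Alternatives were limma-voom, edgeR's exact test, DESeq2 (1.42.0) and limma-trend on log2(FPKM + 0.1) or log2(FPKM + 1) with limma (3.58.1), RLE, upper quartile or library size scaling, at least 10 reads in every library, left-out libraries and a replicate block. Named were every member in each library, the listed genes that passed or were tested, the 5 nearest genes on each side and the 5 most alike. The members and lists were chosen with earlier results of these data known. A comparison of protein sequences was planned and not run. Some genes that this rule or the lists name are not reported here, and counts over lists and neighbours leave them out.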

Additional observations from a re-analysis of the deposited data

How the results depend on the processing

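All 4 OAS genes were called under each of the 17 alternatives, with adjusted p-values of at most 0.00702 for OAS1, 8.5e-04 for OAS2, 0.00655 for OAS3 and 0.00114 for OASL. Genome-wide counts moved more. Genes called lower numbered 528 with all genes with a read, 108 with limma-trend on log2(FPKM + 1), 796 by adjusted p alone and from 183 to 448 with a library left out. Genes called higher numbered 129, 11 and 576 in the same settings, 44 with limma-trend on log2(FPKM + 0.1) and from 21 to 113. With the replicate block the numbers were 217 lower and 38 higher, and the log2 fold changes of the members were -2.03, -3.46, -1.38 and -3.18 (OAS1, OAS2, OAS3, OASL). Deviations of same-numbered libraries correlated at -0.342, 0.0567 and -0.407, so the numbers are not taken as pairs.

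The 0 sensors that were higher became 1 with all genes with a read, DESeq2 or edgeR's exact test, and from 0 to 1 with a library left out. The 0 interferon signalling genes that were higher became 1 with all genes with a read and from 0 to 2. The 0 neighbours of OASL that were higher became 2 with all genes with a read, 1 by DESeq2, edgeR's exact test, library size alone and both limma-trend fits, and from 0 to 2. By reads in place of FPKM, the family shares in control and labelled libraries were 25.2% and 22.4% for OAS1, 8.59% and 2.81% for OAS2, 48.8% and 67.8% for OAS3 and 17.4% and 6.99% for OASL, since reads are not corrected for length.

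Genes near no change turned sign. JAK1 had 0.0024 with all genes with a read, 0.0056 by DESeq2, 0.0055 by RLE scaling, 0.00037 by upper quartile scaling and from -0.19 to 0.14 with a library left out. HECTD4 had -0.015 by limma-voom, -0.031 and -0.0068 by limma-trend (0.1 and 1 added), -0.016 with the block and from -0.21 to 0.25. RPL6 had -0.0013 by both limma-trend fits and from -0.073 to 0.16. With a library left out, PDE12 ranged from -0.13 to 0.0060, PTPN11 from -0.48 to 0.15, CCDC42B from -0.11 to 0.044, DDX54 from -0.074 to 0.047 and RP11-173P15.5 from -0.44 to 0.17. The causes were not tested. Low read numbers limit the precision of genes such as AKAP7 and the interferon genes.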
